A study of Mus musculus with 8 samples.

Results

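The genes described here are 10 genes of early embryo, placenta and germ cells, namely Eras, Trap1a, Lefty1, Oosp1, Gdf3, Dnah8, Cyct, Ldhc, 4930550L24Rik and 1700097N02Rik. They were chosen by their signals on these same arrays, for being high in some splenic tumors and low in others, so their own signals are given as a description with no test. All 10 were found by symbol, on 14 of the 22690 probe sets, out of 12393 named genes. Every probe set that carried one of these symbols carried no other. The 10 genes passed the filter on low signal that 8539 genes passed. For 8 of them this depended on arrays of the tumors in which they were high.

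The study compared 2 kinds of material. The parental cells were FL5.12, a mouse pro-B cell line that depends on interleukin-3, stably transfected with Bfl-1DC and p53DD, with 2 arrays. The other material was tumor cells from the spleens of 3 nude mice (tumors 1, 2 and 3, with 2 arrays each), which formed after the same transfected cells had been injected. Every group thus carried both constructs, and the labels give neither the promoters nor whether the transfectants were a clone or a pool. The sources used here name neither age nor sex of the mice. Nude mice lack a thymus but keep myeloid, erythroid and B cells, and a tumor taken from a spleen can hold host cells. The culture conditions are given for all samples alike, so whether tumor cells were grown in culture before RNA was taken is not settled. In such bulk RNA, fewer cells that express a gene and less RNA per cell cannot be told apart.

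Genes of this kind are normally silent in blood cells. Pluripotent cells of the early embryo express Eras, a constitutively active Ras protein, together with Gdf3 and Lefty1, which belong to the TGF-beta superfamily, Lefty1 as an inhibitor of Nodal signalling. Germ cells use their own versions of common enzymes and motor proteins, among them the lactate dehydrogenase Ldhc, the testis cytochrome c Cyct and the axonemal dynein heavy chain Dnah8, while Oosp1 encodes a secreted protein of oocytes. Trap1a encodes the tumor rejection antigen P1A, an X-linked antigen first found on a mouse mastocytoma and normally made in testis and placenta. Many germline promoters are held silent in somatic cells by DNA methylation and by repressor complexes that contain E2f6, Pcgf6, L3mbtl2 or Setdb1.

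Promoter sequences were available for 8 of the 10 genes, in 9 windows of 300 bases, each running from 250 bases before to 50 bases after a RefSeq start in the assembly GRCm38.p6. The first sequence is shown because it joins a pair of the genes. Dnah8 and the non-coding RNA gene 1700097N02Rik lie head to head on chromosome 17, with starts 30 bases apart on opposite strands. Their windows share 130 bases (chr17:30626856-30626985), printed here in capitals within the Dnah8 window (chr17:30626686-30626985, plus strand).
Dnah8: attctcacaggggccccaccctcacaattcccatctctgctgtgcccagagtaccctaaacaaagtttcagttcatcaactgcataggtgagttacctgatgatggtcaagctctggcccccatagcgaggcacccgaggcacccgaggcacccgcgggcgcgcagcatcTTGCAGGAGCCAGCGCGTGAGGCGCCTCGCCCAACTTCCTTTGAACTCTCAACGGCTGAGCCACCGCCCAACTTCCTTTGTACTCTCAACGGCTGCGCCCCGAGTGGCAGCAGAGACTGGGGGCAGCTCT
The window of Dnah8 held 16 CG dinucleotides and that of 1700097N02Rik 14, of which 9 lay in the shared bases, against a median of 7 over all 32851 windows. The GC content of both windows was 60.3%, against a median of 52.7%.

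The next 3 windows are those of the X-linked genes, which shared a pattern over the tumors, and the last is that of Oosp1, which had a pattern of its own. CG dinucleotides, the sites of DNA methylation, are in capitals. The windows are chrX:7928558-7928857 (minus strand) for Eras, chrX:139333433-139333732 (plus strand) for Trap1a, chrX:58911211-58911510 (plus strand) for 4930550L24Rik and chr19:11691002-11691301 (minus strand) for Oosp1.
Eras: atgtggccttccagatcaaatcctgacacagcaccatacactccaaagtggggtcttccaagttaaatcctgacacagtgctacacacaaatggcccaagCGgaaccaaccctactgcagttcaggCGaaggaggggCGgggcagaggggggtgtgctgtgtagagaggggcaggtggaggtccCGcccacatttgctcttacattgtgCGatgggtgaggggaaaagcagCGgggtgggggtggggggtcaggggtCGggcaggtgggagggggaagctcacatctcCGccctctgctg
Trap1a: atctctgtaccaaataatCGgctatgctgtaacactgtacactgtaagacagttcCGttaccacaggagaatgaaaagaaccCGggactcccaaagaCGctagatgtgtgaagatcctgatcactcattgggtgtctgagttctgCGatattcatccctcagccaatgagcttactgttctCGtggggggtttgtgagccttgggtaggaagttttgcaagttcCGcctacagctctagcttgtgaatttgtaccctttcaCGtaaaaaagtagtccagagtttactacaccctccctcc
4930550L24Rik: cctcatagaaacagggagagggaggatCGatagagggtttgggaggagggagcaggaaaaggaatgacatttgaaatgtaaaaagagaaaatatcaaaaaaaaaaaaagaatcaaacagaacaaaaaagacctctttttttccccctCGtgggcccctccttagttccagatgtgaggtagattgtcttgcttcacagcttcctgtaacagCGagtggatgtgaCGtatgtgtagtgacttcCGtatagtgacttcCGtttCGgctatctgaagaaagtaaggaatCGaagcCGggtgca
Oosp1: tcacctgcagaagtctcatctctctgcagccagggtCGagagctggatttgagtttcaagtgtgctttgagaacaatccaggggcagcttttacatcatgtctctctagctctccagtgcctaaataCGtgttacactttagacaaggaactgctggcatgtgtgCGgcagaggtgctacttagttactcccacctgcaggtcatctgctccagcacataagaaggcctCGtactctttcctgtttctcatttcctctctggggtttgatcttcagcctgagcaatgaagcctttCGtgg
Eras and Trap1a had 8 CG dinucleotides each, 4930550L24Rik had 9 and Oosp1 had 5. The ratio of observed to expected CG was 0.31 for Eras, 0.491 for Trap1a, 0.662 for 4930550L24Rik and 0.275 for Oosp1, against a median of 0.38 over all windows, so the windows lay on both sides of the typical promoter. The windows of Cyct and Ldhc had 8 CG dinucleotides for Cyct and 9 and 3 at the 2 starts of Ldhc.

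Short motifs were searched on both strands, and they were chosen with the sequences in view. The E-box CACGTG was in 0 of the 9 windows and in 7.15% of all windows. TCCCGC, which resembles the E2F site, was in the windows of Cyct and Eras and in 20.0% of all windows. The core of the cyclic AMP response element, TGACGT, was in the windows of Ldhc (first start) and 4930550L24Rik and in 7.51% of all windows. ACTTCCG, which resembles an ETS site and overlaps none of the others, occurred 2 times in the window of 4930550L24Rik and was present in 6.42% of all windows. No motif was common to the 9 windows, and a match shows only that the letters are present.

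The values are MAS5 signals on a linear scale, scaled on each array to the same trimmed mean, with a median signal of 32.4 to 37.9 per array. Duplicate arrays correlated at 0.951 to 0.972 across genes, which are not independent replicates. The number of arrays limits the precision, and since the labels do not say that duplicate arrays came from separate cultures or extractions, p-values may measure technical spread only. Of the pro-B markers on the array, 8 of 13 were below the filter with signals of 18.9 or less, among them Ebf1, Pax5, Rag1 and Rag2. These transcripts of the labelled cell type were thus near the floor in parental and tumor arrays alike. Others were not: in parental cells Cd79a read 87.7 and 95.2 and Cd79b read 109 and 77.6, and both were higher on every tumor array. Igll1, Vpreb3 and Cd24a passed the filter but read 20.9 or less in parental cells. Genes of neutrophils, macrophages and eosinophils and some genes of T cells were higher in the tumors, whereas erythroid genes as a set were not. Their values are given beside the results they touch.

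A source is called on for a gene here where both of its arrays had a signal of at least 100, off where both were under 50, and mixed otherwise. By this rule 9 of the 10 genes were off in parental cells, and 8 of these were on in at least 1 tumor, compared with 0.605% of the 22626 probe sets of the array that are no controls. Since the genes were picked for this pattern, nothing is read from that difference. They were on in 2 tumors in 4 cases (0.141% of probe sets), in all 3 tumors in 2 cases (0.106%) and in 1 tumor in 2 cases (0.358%). No pattern over the tumors held for all of them: one set was highest in tumors 1 and 2, another in tumors 1 and 3, and Oosp1 in tumors 2 and 3.

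**Figure D1:**
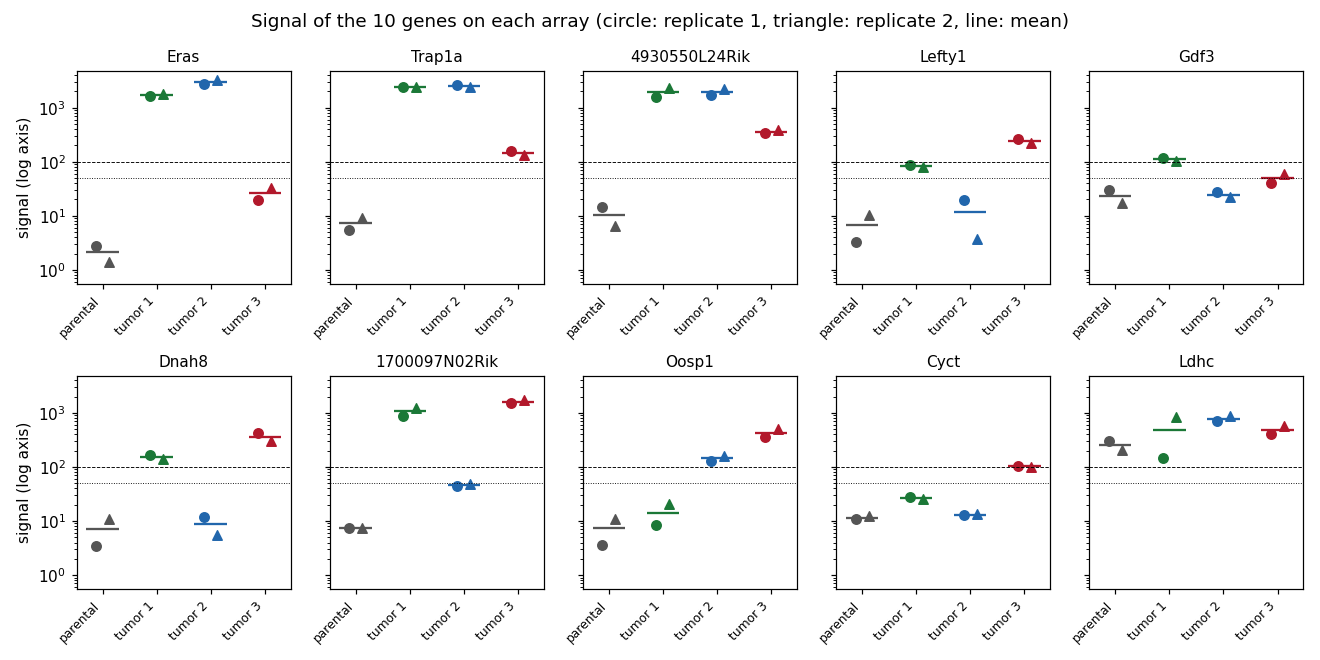
MAS5 signal (log axis) of each of the 10 genes on each of the 8 arrays, 2 per source, for the probe set with the highest mean. The X-linked genes Eras, Trap1a and 4930550L24Rik are highest in tumors 1 and 2, Dnah8 and 1700097N02Rik are low in tumor 2, Oosp1 is low in tumor 1, and Ldhc is already high in parental cells.

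Eras, which encodes a Ras protein of embryonic stem cells that needs no upstream activation, had the largest range. It read 2.81 and 1.37 in parental cells, while tumor 1 read 1609 and 1798, tumor 2 read 2728 and 3187, and tumor 3 read 19.6 and 32.5. Tumors 1 and 2 were thus high on every array, tumor 2 above tumor 1 without overlap. Tumor 3 was below the median signal of its arrays, at percentiles 40.1 and 47.9, and above parental cells, at 17.1 and 10.3. On the scale of log2(signal + 16), which is used for all differences and understates changes of low signals, tumors 1, 2 and 3 exceeded parental cells by 6.57, 7.36 and 1.20. Eras has 1 probe set, of a type whose probes can hybridise to related transcripts.

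Trap1a, the gene of the antigen P1A, read 5.50 and 9.08 in parental cells, while tumor 1 read 2427 and 2367, tumor 2 read 2578 and 2419, and tumor 3 read 155 and 133. The arrays of tumors 1 and 2 overlapped, and tumor 3 lay between them and the parental arrays without overlap. The differences from parental cells were 6.70, 6.76 and 2.78 in tumors 1, 2 and 3.

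4930550L24Rik, an X-linked gene that the RefSeq table also lists as mage-k1, a name of the melanoma antigen family, read 14.3 and 6.46 in parental cells, while tumor 1 read 1580.2 and 2288, tumor 2 read 1695 and 2185, and tumor 3 read 335 and 379.7. As for Trap1a, tumors 1 and 2 overlapped and tumor 3 lay between them and parental cells. The differences were 6.20, 6.22 and 3.84. Of the 3 X-linked genes, Trap1a and 4930550L24Rik were on in every tumor and Eras was off in tumor 3.

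Lefty1, the secreted inhibitor of Nodal, read 3.27 and 10.4 in parental cells, while tumor 1 read 85.6 and 78.5, tumor 2 read 19.9 and 3.67, and tumor 3 read 265 and 223. Tumor 2 overlapped parental cells, tumor 1 was intermediate and tumor 3 was highest. The differences from parental cells were 2.12, 0.24 and 3.52 in tumors 1, 2 and 3.

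Gdf3, a ligand of the same superfamily, was lower and less spread. It read 29.9 and 17.1 in parental cells, while tumor 1 read 118 and 104, tumor 2 read 26.9 and 22.3, and tumor 3 read 39.8 and 58.7. Only tumor 1 reached 100, tumor 2 overlapped parental cells, and Lefty1 and Gdf3 therefore did not share their highest tumor. The differences were 1.70, 0.06 and 0.73.

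Dnah8, the heavy chain of an axonemal dynein of sperm tails, read 3.40 and 11.1 in parental cells, while tumor 1 read 167 and 141, tumor 2 read 11.8 and 5.60, and tumor 3 read 419.6 and 301. Tumor 2 overlapped parental cells and tumors 1 and 3 were on. The differences were 2.89, 0.10 and 4.02. The second probe set of Dnah8 stayed at 29.2 or less on every array and so was off throughout, although its highest values, 29.2 and 22.98, were also those of tumor 3.

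1700097N02Rik, the non-coding gene that starts beside Dnah8, read 7.32 and 7.46 in parental cells, while tumor 1 read 882 and 1247, tumor 2 read 44.98 and 48.5, and tumor 3 read 1502 and 1724. The order of the tumors was that of Dnah8, but here tumor 2 stood above parental cells without overlap. The differences were 5.51, 1.42 and 6.12. Of its other 2 probe sets, the first rose from 33.3 and 31.4 to as much as 1609 with the same order of tumors, and the second reached 60.2 and 106 in tumor 3. The divergent pair printed above was thus high in the same tumors on both sides of its shared bases.

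Oosp1, the oocyte gene, read 3.61 and 11.1 in parental cells, while tumor 1 read 8.27 and 20.4, tumor 2 read 128 and 162, and tumor 3 read 362 and 495. Tumor 1 overlapped parental cells, and tumor 3 was above tumor 2 on every array. The differences were 0.37, 2.80 and 4.25.

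Cyct, the testis form of cytochrome c, read 10.7 and 12.3 in parental cells, while tumor 1 read 28.2 and 25.9, tumor 2 read 13.1 and 13.2, and tumor 3 read 105 and 99.1. It stood clear of the rest in tumor 3, where it fell just short of the on rule because 1 array was at 99.1. The differences were 0.65, 0.09 and 2.10.

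Ldhc, the lactate dehydrogenase of sperm, went against the description of being switched on. It was already on before injection. It read 305 and 206 in parental cells, while tumor 1 read 144 and 832, tumor 2 read 698 and 874, and tumor 3 read 409 and 563. Tumor 1 spanned the parental values, with 1 array below and 1 above them. Its second probe set showed the same split, with 205 and 163 in parental cells against 91.4 and 485 in tumor 1. The differences from parental cells were 0.47, 1.58 and 0.90, and the largest of them was below the largest of each of the other 9 genes.

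The 2 arrays of tumor 1 differed 5.79-fold for Ldhc. On the same arrays the summed signal of the neutrophil markers differed 2.54-fold, from 4173 to 10585. That of the macrophage markers differed 4.06-fold, from 786 to 3189.6. The macrophage sum also rose from first to second array in parental cells (5.36-fold, from 163 to 872) and in tumors 2 (2.21-fold) and 3 (1.97-fold). Most of the parental rise was that of 1 gene, Csf1r, from 11.5 to 555. The neutrophil sum fell to 0.392 times in parental cells and rose 1.18-fold and 1.83-fold in tumors 2 and 3. Most of the parental fall was that of 1 gene, Prtn3, from 725 to 162. The part of these shifts in the result was not tested. For the other 9 genes, in the 16 cases in which one was on in a tumor, the second array was between 0.717 and 1.45 times the first. Since a case counts as on only where both arrays reach the threshold, these cases cannot test whether duplicates give the same state. In the cases of these genes that were not on, the ratio ran from 0.184 (Lefty1 in tumor 2) to 2.46 (Oosp1 in tumor 1). With single arrays, the first arrays gave 20 on states over all genes described and the second arrays 19. They differed for Cyct in tumor 3, which was on with the first array alone.

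Of the 30 combinations of a gene and a tumor, 19 were on. Higher or lower thresholds, a fold rule against parental cells, other scalings, other probe sets and single arrays gave 14 to 21. The fold rule (both arrays at least 4 times the higher parental array) also gave 19, but with 8 changed states. It turned on Eras in tumor 3, 1700097N02Rik in tumor 2, Cyct in tumor 3 and Lefty1 in tumor 1, and it turned off Gdf3 in tumor 1 and Ldhc in all 3 tumors.

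To describe which genes went together, each was scaled from 0 on its lowest array to 1 on its highest, and the distance between a pair was the mean absolute difference over the 8 arrays. The arrays come from 4 sources, so this is a description of few independent points. The closest pair was Lefty1 and Dnah8 (0.047), followed by Trap1a and 4930550L24Rik (0.078), Eras and Trap1a (0.1), Lefty1 and Cyct (0.114), and Dnah8 and 1700097N02Rik (0.116). Eras and Cyct were farthest apart (0.583). The 3 X-linked genes lay within 0.142 of each other, and Lefty1, Dnah8, 1700097N02Rik and Cyct within 0.198. The nearest of the 10 lay at 0.196 from Gdf3 (1700097N02Rik), at 0.214 from Ldhc (4930550L24Rik) and at 0.217 from Oosp1 (Cyct).

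Over all tested genes whose source means spanned at least 2 on the log2 scale, the genes nearest to each of the 10 were found by the same distance, and nothing is said of shared function. For Eras these were Cdh17, an intestinal cadherin (0.097), Islr (0.098) and Trap1a. For Dnah8 they were Lefty1, Acss1, a mitochondrial acetyl-CoA synthetase (0.051), and Rec8, the meiotic cohesin subunit (0.057). Rec8 read 0.896 and 1.38 in parental cells, while tumor 1 read 52.2 and 37.6, tumor 2 read 0.981 and 6.94, and tumor 3 read 87.2 and 65.4. It was low in the tumor in which Dnah8 was low, which follows from its choice by this distance.

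For Lefty1 the nearest genes were Dnah8, Acss1 (0.068) and Tulp2, a testis gene of the tubby family (0.08). For Oosp1 they were Aldh1a7 (0.064), Rhox5, an X-linked homeobox gene of testis and placenta (0.106), and Rcn2 (0.107). For Cyct they were Baiap2l1 (0.061), Serpinb9g (0.065) and Tgm2 (0.067), each high in tumor 3. The list for 4930550L24Rik held Trap1a, Epx, the peroxidase of eosinophils (0.109), and Slc7a9 (0.11), and that for 1700097N02Rik held Cd3d, part of the CD3 complex (0.085), Serpinb9c (0.094) and Lamb2 (0.098).

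Genes nearest to Gdf3 and Ldhc were less close. For Gdf3 they were the chemokine receptor gene Ccr1 (0.128), Adgrg3 (0.135) and Akr1c18 (0.139), and for Ldhc they were Ramp1 (0.191), Rgs10 (0.201) and Npr2 (0.205). The nearest genes thus mixed germline genes with genes of blood cells, and being near in this sense is shared by genes of both kinds.

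A stricter rule, added after the values had been seen, asked that every array of the named tumors be at least 4 times every other array and at least 50. In tumors 1 and 2 it found 4 of 8539 genes (0.0468%), which were Eras, Trap1a, 4930550L24Rik and Cdh17. In tumors 1 and 3 it found 5 (0.0586%), which were Dnah8, 1700097N02Rik, Acss1, Adgre5 and Serpinb9c. In tumors 2 and 3 it found 4 (0.0468%), which were Oosp1, Rhox5, Gli2 and Aldh1a1.

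In single tumors the rule found 9 genes for tumor 1 (0.105%), 0 for tumor 2 and 12 for tumor 3 (0.141%), none of them among the 10. The 12 of tumor 3 included Piwil2, an Argonaute protein of the germline piRNA pathway, and Xist, the RNA that coats the inactive X chromosome. Xist read 21.05 and 14.9 in parental cells, while tumor 1 read 24.8 and 42.6, tumor 2 read 38.6 and 36.4, and tumor 3 read 196 and 245. Tumor 3, where Xist was highest, was the tumor in which the 3 X-linked genes were lowest, and the part of Xist in their levels was not tested. The X chromosome held 242 of the 8539 tested genes (2.83%).

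The chromosomal neighbours describe signals around the genes themselves. For each gene the 3 nearest tested genes on each side were taken in the order of the RefSeq table, which gave 54 neighbours that are not among the 10. Genes that were not measured or were below the filter were skipped, so some neighbours were distant and say little of the region beside a gene. Those of Trap1a lay 462639 to 3061705 bases away, the farthest with 68 genes between. In the comparison of the 3 tumors with parental cells, limma at an adjusted p of 0.05 called 0 of the 54 and 0.761% of all tested genes. An unadjusted p was under 0.05 for 4 of the 54 and for 1399 of all 8539 tested genes. With the replicate number of the arrays as a block in a fit of all 8 arrays, 4 neighbours were called (Tsc22d3, Tmem63a, Ms4a3 and Apobec1), beside 14.6% of all genes (8.7% rose and 5.9% fell), and every later count given with the block is to be read against these shares.

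Fits of single tumors against parental cells, whose spread is that between duplicate arrays and not between mice, called 3 of the 54 neighbours in tumor 1, 1 in tumor 2 and 2 in tumor 3. The shares of all genes called were 3.71%, 1.55% and 2.52%, of which falls made up 1.38%, 0.375% and 0.527%. With the block these counts were 8, 2 and 4 of 54, where 15.1%, 6.15% and 10.5% of all genes were called. An F test for differences among the 3 tumors called 4 neighbours and 1.63% of all genes, and with the block 5 neighbours and 6.48% of all genes.

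Ms4a3, a membrane protein gene of the myeloid lineage, lies 26609 bases from Oosp1 with 1 gene between them. It read 18.7 and 16.9 in parental cells, while tumor 1 read 101 and 161, tumor 2 read 1105 and 1313, and tumor 3 read 628 and 1853. All tumors were above parental cells, by 2.09 ± 0.45 (SE; limma adjusted p = 0.0496) in tumor 1, 5.17 ± 0.45 (0.00165) in tumor 2 and 5.02 ± 0.45 (0.000959) in tumor 3. It differed among the tumors (F test, adjusted p = 0.026). The call in tumor 1 and the F test did not hold in every alternative, with adjusted p up to 0.208 and 0.122. Ms4a3 shared with Oosp1 the low value in tumor 1, but it was on there and Oosp1 was not.

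Near Eras, Hdac6, a cytoplasmic deacetylase, and Gata1, the erythroid transcription factor, fell in tumor 1, in which Eras was high. Hdac6, 1509 bases from Eras, read 69.8 and 57.1 in parental cells, while tumor 1 read 3.57 and 19.9, tumor 2 read 110.4 and 80.3, and tumor 3 read 97.9 and 56.6. Its difference in tumor 1 was -1.58 ± 0.34 (SE; limma adjusted p = 0.0491). Gata1 read 306 and 305 in parental cells, while tumor 1 read 38.6 and 87.2, tumor 2 read 357 and 222, and tumor 3 read 284 and 232. Its difference in tumor 1 was -2.10 ± 0.34 (limma adjusted p = 0.0159).

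Both genes differed among the tumors (F test, adjusted p = 0.0467 for Hdac6 and 0.0439 for Gata1). The erythroid markers, to which Gata1 belongs, summed to 529 and 509 in tumor 1, against 1805 and 1275 (tumor 2), 1399 and 1309 (tumor 3) and 2067 and 1413 (parental cells), and their part in these falls was not tested. In tumor 2, where Eras was highest, no fall of either gene was called. Any relation of these genes to the level of Eras was not tested. Pcsk1n, which overlaps the end of Eras, stayed between 5.68 and 35.7.

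Osbpl6, a lipid-binding protein gene 46051 bases from Cyct, rose in tumor 3, as Cyct was high there. It read 1.69 and 0.952 in parental cells, while tumor 1 read 1.60 and 3.84, tumor 2 read 0.811 and 9.24, and tumor 3 read 39.4 and 27.9. The difference in tumor 3 was 1.51 ± 0.24 (SE; limma adjusted p = 0.0184), and the tumors differed (F test, adjusted p = 0.0483). Its signal stayed under 50, so it was off by the rule used above.

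Dppa3, an oocyte and embryo gene beside Gdf3 on chromosome 6, stayed between 12.2 and 31.4 and was not called (limma adjusted p = 0.674). No neighbour of Dnah8 or 1700097N02Rik was called.

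**Figure D2:**
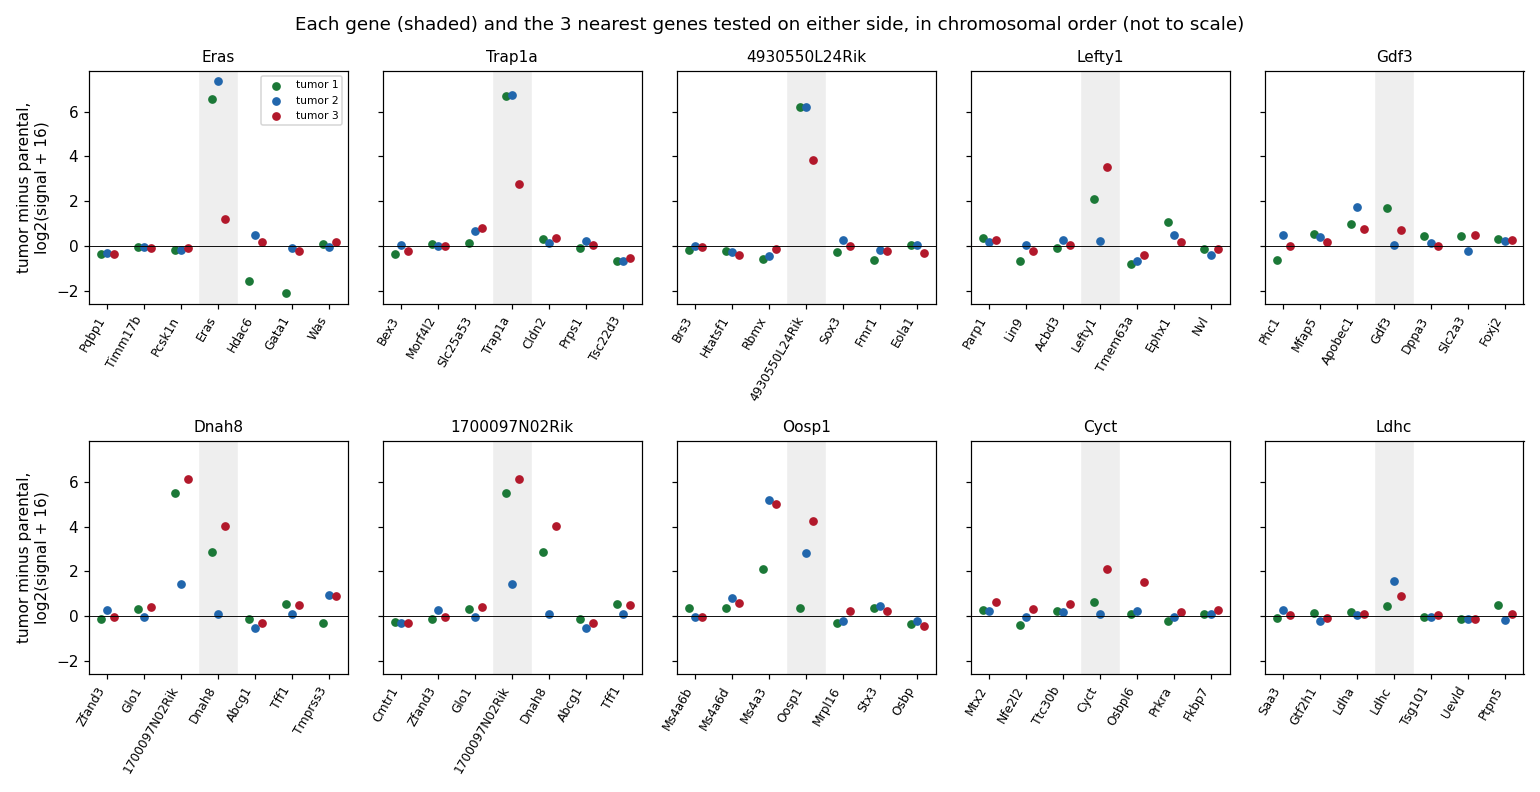
Difference of each tumor from parental cells on the log2(signal + 16) scale for each of the 10 genes and its nearest tested neighbours on the chromosome, in gene order and not to scale. Ms4a3 beside Oosp1 is high in every tumor, most of the other neighbours lie near 0, and Hdac6 and Gata1 near Eras are below 0 in tumor 1.

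The remaining genes of the same pathways were taken from 10 lists, from which the 10 genes themselves are left out here. Over all 8539 genes, 50 rose (0.586%) and 15 fell (0.176%) in the tumors, with a median difference of 0.02. Of these genes 1399 had an unadjusted p under 0.05, and the counts of the lists at that level are to be read against this. With each array centred on its median, which moved the median of all genes by -0.11, the counts were 48 and 28. List medians are given beside that of all genes and nothing is called particular to a list. A gene low on both parental arrays was tested only where tumor arrays were high. Medians and counts of rises in lists with such genes, the cell type markers included, therefore lean upward.

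The defining factors of pluripotent cells stayed near the floor where Eras, Gdf3 or Lefty1 were high. Pou5f1, Nanog, Sox2 and Zfp42 reached at most 10.2, 3.88, 3.80 and 7.37 on any array. Of 27 genes on the array, 18 were below the filter, with signals of 21.3 or less. Limma called 0 of the 9 tested, in the tumors together or singly, and 1 had an unadjusted p under 0.05. The median difference was 0.26, and with the block 1 gene, Utf1, was called (adjusted p = 0.0216).

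In Nodal and TGF-beta signalling, limma called 0 of 23 tested genes in the tumors together, 3 had an unadjusted p under 0.05, and the median difference was 0.08, or -0.03 after median centring. Nodal itself, the ligand that Lefty1 inhibits, reached 36.1 at most and its coreceptor gene Tdgf1 3.57, while the receptor gene Acvr1b reached 212. In single tumors the only call of this list was Tgfbr1, the type I TGF-beta receptor, in tumor 1 (1.21; limma adjusted p = 0.0386). With the block, Tgfbr1 (0.0352) and the type II receptor gene Tgfbr2 (0.0125) were called in the tumors together. Lefty1 was highest in tumor 3.

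Among the Ras relatives of Eras, limma called 0 of 13 tested genes in the tumors together, with 2 at an unadjusted p under 0.05 and a median difference of -0.06. In single tumors the calls were Rala in tumor 1 (1.06; limma adjusted p = 0.0188), Ralb in tumor 2 (0.96; 0.0454) and Mras in tumors 2 (1.49; 0.0154) and 3 (1.19; 0.0302). Mras differed among the tumors (F test, adjusted p = 0.0085). With the block, Mras (0.0103), Rala (0.0154) and Ralb (0.01) rose and Rap1b fell in the tumors together. The classical gene Nras was not called. Mras thus had its higher values in tumors 2 and 3, whereas Eras was high in tumors 1 and 2.

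Of the genes of meiosis and spermatogenesis, 29 of 45 on the array were below the filter, and Ddx4, Sycp3 and Dazl, which define germ cells, reached only 2.47, 7.99 and 12.4. Of 14 tested, limma called 1 in the tumors together, Clgn, a chaperone of developing sperm cells. An unadjusted p was under 0.05 for 7, and the median difference was 0.61. Clgn, Adam3 and Stra8, at the floor in parental cells, passed the filter only through tumor arrays, which favours rises among the tested genes. With the block 6 rose, beside 8.7% of all genes. Clgn read 2.22 and 1.71 in parental cells, while tumor 1 read 26.8 and 24.9, tumor 2 read 35.5 and 52.2, and tumor 3 read 44.4 and 63.2. Its difference was 1.63 ± 0.24 (SE; limma adjusted p = 0.0429), with all tumor arrays above both parental arrays. Leaving out tumor 2, tumor 3 or either of the parental arrays ended the call (adjusted p up to 0.19), and it was also lost with a pseudocount of 64 (0.117), with no filter (0.0912), after quantile normalization (0.0508) and with the mean of all probe sets (0.052).

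In single tumors the list gave 2 calls in tumor 1, 2 in tumor 2 and 5 in tumor 3, all of them rises (2.33%, 1.17% and 1.99% of all genes rose in tumors 1, 2 and 3). With the block 4, 3 and 6 rose, beside 8.09%, 4.03% and 6.24% of all genes. Clgn rose in each. Tex14, an intercellular bridge protein of germ cells, rose in tumors 1 (limma adjusted p = 0.0489) and 3 (0.0165). Adam3, a sperm surface protein, rose in tumors 2 (0.0157) and 3 (0.0456). Hspa2, a testis chaperone, rose in tumor 3 (0.0354). Piwil2 rose in tumor 3 (0.00186) and differed among the tumors (F test, adjusted p = 0.0118). It read 12.7 and 5.27 in parental cells, while tumor 1 read 18.2 and 10.5, tumor 2 read 21.7 and 16.1, and tumor 3 read 96.7 and 91.9, so that it was high where Cyct was high.

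Of the oocyte genes other than Oosp1, limma called 0 of 3 tested, with 0 at an unadjusted p under 0.05, and 12 more were below the filter at 20.0 or less. The oocyte growth factor genes Gdf9 and Bmp15 reached 42.8 and 4.07. Of the axonemal dyneins and cilia genes other than Dnah8, limma called 0 of 7 tested in the tumors together or singly, 2 had an unadjusted p under 0.05, the median was -0.19, and with the block 0 were called in the tumors together. With the block Rsph9, a radial spoke protein of cilia, fell in tumor 2 (adjusted p = 0.0251) and differed among the tumors (F test, 0.0175), and Tekt1, a tektin of sperm tails and cilia that was also on the meiosis list, rose in tumor 2 (0.0432). Rsph9 read 16.5 and 20.1 in parental cells, while tumor 1 read 10.4 and 20.9, tumor 2 read 2.17 and 2.51, and tumor 3 read 25.7 and 27.7. It was lowest in both arrays of tumor 2 and stayed under 50 on every array.

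Rhox5, an X-linked homeobox gene of Sertoli cells and placenta that is expressed in many tumor cell lines, was the one called gene among the 5 tested X-linked germline and tumor antigen genes other than Trap1a. It read 22.4 and 8.99 in parental cells, while tumor 1 read 32.6 and 50.03, tumor 2 read 245 and 274, and tumor 3 read 448 and 517. The difference from parental cells was 3.15 ± 0.26 (SE; limma adjusted p = 0.00121) in tumor 2 and 4.005 ± 0.26 (0.000197) in tumor 3, and it was 0.87 ± 0.26 (0.123) in tumor 1. It differed among the tumors (F test, adjusted p = 0.00268).

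In the tumors together Rhox5 was not called (2.67 ± 0.84; limma adjusted p = 0.203), and it was with the block (0.000447) and without tumor 1 (3.58; 0.0177). Rhox5 therefore took the pattern of the autosomal gene Oosp1 and not that of the X-linked genes Eras, Trap1a and 4930550L24Rik, which were lowest in tumor 3. Limma called 0 of the 5 genes of its list in the tumors together and 1 had an unadjusted p under 0.05.

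Among 9 tested genes of placenta and trophoblast, limma called 0 in the tumors together and 4 had an unadjusted p under 0.05, with a median of 0.41. With the block 4 rose, which were Rhox5, Ets2, Gata2 and Psg17. Psg17, a pregnancy-specific glycoprotein, read 2.82 and 5.64 in parental cells, while tumor 1 read 52.6 and 48.7, tumor 2 read 1.36 and 1.59, and tumor 3 read 13.5 and 5.43. It rose in tumor 1 (1.72 ± 0.21; SE; limma adjusted p = 0.00511) and differed among the tumors (F test, adjusted p = 0.00906). Like Gdf3, Psg17 had its highest values in tumor 1.

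The genes known for silencing germline promoters showed no rise or fall that limma called in the tumors together. Of 29 tested, 0 were called, 4 had an unadjusted p under 0.05, 8 were above 0 and the median was -0.20. With the block 4 fell, which were the DNA methyltransferase Dnmt3a (adjusted p = 0.038), the chromatin remodeller Hells (0.0143) and the repressor components E2f6 (0.0132) and Pcgf6 (0.0143).

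E2f6 read 463 and 330.3 in parental cells, while tumor 1 read 249.6 and 191, tumor 2 read 304 and 265, and tumor 3 read 261 and 205. Pcgf6 read 343 and 258 in parental cells, while tumor 1 read 239 and 129, tumor 2 read 162 and 143, and tumor 3 read 189 and 109.6. All tumor arrays were below both parental arrays for each gene. Without the block the differences were -0.65 ± 0.21 (limma adjusted p = 0.208) and -0.86 ± 0.19 (0.107). Their part in the levels of the 10 genes was not tested. In single tumors without the block, limma called a rise of Rnf2, a Polycomb ubiquitin ligase, in tumor 1 (0.86; adjusted p = 0.0468) and no other gene of the list. With the block 2 rose and 5 fell in tumor 1, 1 fell in tumor 2 and 4 fell in tumor 3, where 7.0%, 2.12% and 4.29% of all genes fell. Pcgf6 was among the falls in each tumor (adjusted p = 0.0479, 0.039 and 0.0235), and E2f6 and Hells fell in tumors 1 and 3. The F test with the block called 2 genes, Rnf2 (adjusted p = 0.0348) and Mga (0.0475).

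The somatic counterparts were expressed throughout. Ldha, the lactate dehydrogenase of most tissues, ranged from 1570 to 2545 over the 8 arrays, and its difference of 0.11 was not called (limma adjusted p = 0.846). Cycs, the somatic cytochrome c, lay between 2467 and 3384. Limma called 0 of the 5 counterparts and 1 had an unadjusted p under 0.05.

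**Figure D3:**
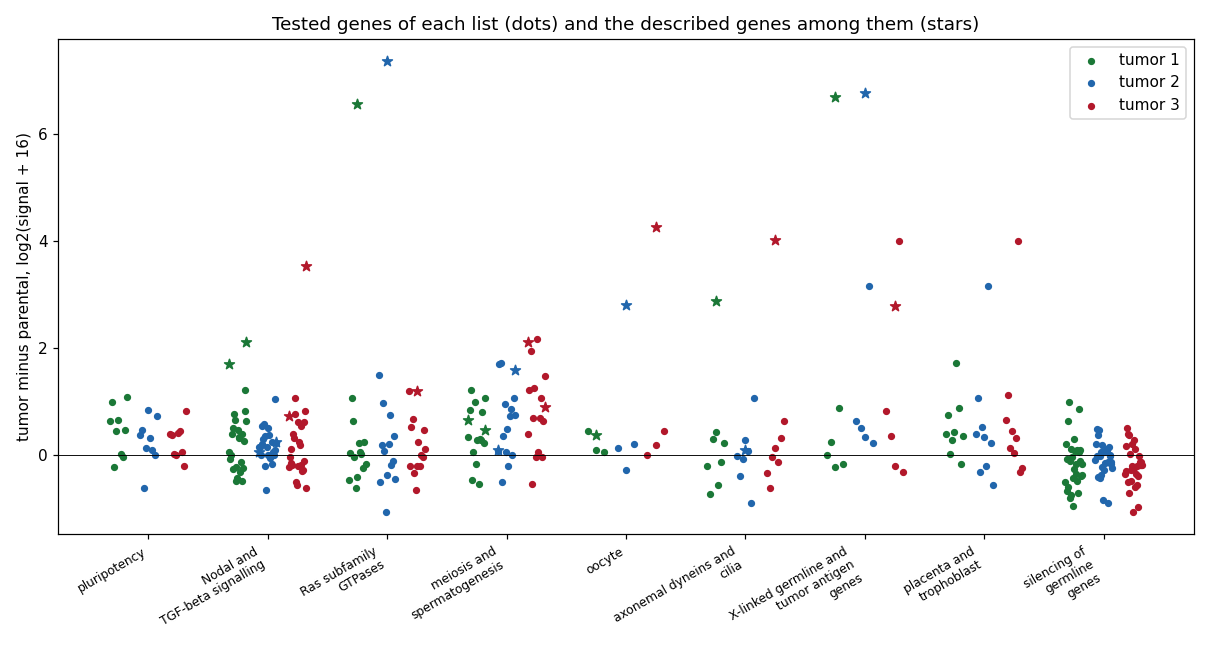
Difference of each tumor from parental cells on the log2(signal + 16) scale for the tested genes of each pathway list. Dots are genes, stars are those of the 10 described genes that are on a list, colours are tumors and the line marks 0. The cell type markers and the somatic counterparts are not drawn. With the stars left out, the median in the tumors together was highest for meiosis and spermatogenesis (0.61). Genes low in parental cells were tested only through tumor arrays, which raises such medians.

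Some markers of other blood cells differed between the tumors and parental cells. Of the neutrophil markers 2 of 11 tested rose (median difference 1.92), of the macrophage markers 3 of 8 (1.48), of the eosinophil markers 2 of 4 (3.91), of the T cell markers 1 of 4 (1.92), of the pro-B markers 1 of 5 (0.97), and of the erythroid (-0.22) and stromal and endothelial markers (-0.09) 0 of 9 and 0 of 6. With the block the counts were 6, 6, 4, 2 and 3 for the first 5 lists, and 3 erythroid markers rose and 2 fell.

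The summed signal of the eosinophil markers was 37.4 and 32.99 in parental cells, against 3634 and 6194 (tumor 1), 3705 and 4549.8 (tumor 2) and 7011 and 8218 (tumor 3). That of the T cell markers was 256 and 367 in parental cells, against 1664 and 2021 (tumor 1), 1004 and 1479 (tumor 2) and 2420.3 and 2708 (tumor 3). Of the 4 tested T cell markers, 2 were above parental cells, Cd3g and Cd3d, and these made up most of the tumor sums. The other tested markers, Lat and Zap70, were not above parental cells, and Cd3e stayed at 12.2 or less. Among the tumors the T cell sum was lowest in tumor 2 and highest in tumor 3, the order also seen for Lefty1, Dnah8, 1700097N02Rik and Cyct. The part of this sum in their levels was not tested.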

How the data were processed

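RNA was measured on Affymetrix mouse genome arrays, 2 for parental cells and 2 for each of 3 tumors. The authors deposited 1 signal intensity on a linear scale for each probe set, computed by MAS5 per the submitters' processing notes (version not given in the sources used here). On each array the trimmed mean (2% left out at each end) was 150.06, so arrays had been scaled to 150. MAS5 noise is large for low signals.

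Of 22690 probe sets, 20380 had 1 gene symbol, 691 several and 1555 none, and 64 controls were left out. Names were updated by gene ID (20364 matched) to a RefSeq table of GRCm38.p6, which also gave gene order and promoter windows. Values were taken as log2(signal + 16). A probe set was kept where it exceeded the 40th percentile of its array (15.6 to 20.6) on at least 2 of 8 arrays, and the one with the highest mean stood for a gene, which left 8539 genes.

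Limma 3.58.1 in R 4.3.3 compared 3 tumors (means of 2 arrays) with 2 parental arrays, two-sided, with Benjamini-Hochberg adjustment over all genes at 0.05. A fit of all 8 arrays gave single tumors and the F test. The fits were tested on simulated data. Same-numbered arrays deviated together in each of 6 pairs of sources (correlation 0.4 to 0.596), which was taken as pairing, and that number served as a block in alternative fits, beside other pseudocounts, filters, scalings, probe set rules and left-out samples.

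The 10 genes, the lists and the tests were chosen with earlier results of these data known. Genes named are the 10, their 3 nearest genes in pattern, their 3 chromosomal neighbours on each side that were called, up to 3 called genes per list (or the 2 of lowest p), and lists' defining genes. Dnmt3a, Hells, E2f6, Pcgf6, Xist and the genes of the stricter pattern rule were chosen after their values were seen.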

Additional observations from a re-analysis of the deposited data

Results flagged for a closer look

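These genes are not among the 10, and each differed between the tumors under the same comparison with parental cells, by limma's F test over the 3 tumors with adjustment over all genes. They are limited to the genes taken up by the naming rule. The list genes were Rhox5 (adjusted p = 0.00268), Mras (0.0085) and Psg17 (0.00906), whose values are given above. Piwil2 also differed, as given above, but no alternatives are given for it. Rhox5 and Mras were higher in tumors 2 and 3 than in tumor 1, and Psg17 was highest in tumor 1. The chromosomal neighbours were Ms4a3 (adjusted p = 0.026) beside Oosp1, Gata1 (0.0439) and Hdac6 (0.0467) beside Eras, and Osbpl6 (0.0483) beside Cyct. Among the cell type markers so named, Cd24a (adjusted p = 0.009), Cd3d (0.0175) and Tie1 (0.0184) differed. The F test also called 1 neutrophil marker and 3 erythroid markers, Gata1 among the latter. Cd3d, part of the CD3 complex, had its lowest tumor values in tumor 2, at 82.0 and 109 against 333 and 699.6 in tumor 1 and 569 and 732 in tumor 3. The spread in these tests is that between duplicate arrays. Of these differences among tumors, those of Rhox5, Mras and Psg17 held in every alternative run, with adjusted p up to 0.036, 0.0494 and 0.05 (rounded). The others with alternatives given were lost in at least 1 of them. Their adjusted p reached 0.122 for Ms4a3, 0.16 for Gata1, 0.164 for Hdac6, 0.325 for Osbpl6, 0.104 for Cd24a, 0.114 for Cd3d and 0.0917 for Tie1.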

How the results depend on the processing

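The count of genes called in the 3 tumors against parental cells, 65, became 33 when 64 was added before the log, 26 unfiltered, 1247 with the replicate block in a fit of all 8 arrays, 355 in that fit without the block, and 41 and 119 with the first or second arrays of the tumors alone. Leaving out 1 sample gave 12 to 72, with 16 without parental replicate 1 and 12 without parental replicate 2. The replicate block raised the counts for tumors 1, 2 and 3 from 317, 132 and 215 to 1289, 525 and 899, and that of the F test from 139 to 553. Leaving out 1 array gave 101 to 263, 47 to 146, 88 to 241 and 39 to 102. The F test called 81 genes when no filter was used and 72 when 1 was the pseudocount. With median centring the 170 rises and 45 falls of tumor 3 became 151 and 99. The cause of these moves was not tested. Of 97 single-gene results, 40 of the 69 called lost the call in at least 1 alternative, and 18 of the 28 not called gained one. Zp2 changed sign with the first arrays alone (-0.02), Nras with the mean of its probe sets (0.29) and without parental replicate 1 (range with 1 sample left out -0.50 to 0.05), and Hdac6 in the tumors together without tumor 1 (range -0.69 to 0.34). The calls of Rhox5 in tumors 2 and 3, of Psg17 in tumor 1 and of Clgn in tumor 3 held in every alternative run, and those of Tgfbr1, Rala, Ralb, Rnf2, Hspa2, Adam3, Mras, Osbpl6, Hdac6 and Gata1 in single tumors did not, with adjusted p up to 0.174, 0.115, 0.264, 0.196, 0.20, 0.249, 0.23, 0.146, 0.192 and 0.0864, nor did those of Ms4a3 in tumor 1 (0.208) and of Clgn in tumors 1 (0.126) and 2 (0.071). Signals under about 50 lie near background, which limits what the low tumors of each gene show.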
